A study of Rattus norvegicus with 22 samples.

Results

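Thyroid hormone receptors are nuclear receptors that sit on DNA as partners of retinoid X receptors, holding target genes down without hormone and raising their transcription once hormone binds. The gene Thra gives rise by splicing to the alpha-1 receptor, which binds hormone, and to the alpha-2 variant, which does not, and Thrb encodes the beta receptors. Thyroid hormone around birth is required for the maturation of neurons and for myelination, and Thra is the receptor gene expressed throughout the nervous system.

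Thra was followed here through every probe set that the platform annotation assigns to it. These were M31174_at, M31174_g_at and rc_AA997529_s_at, 3 of 1050 probe sets in the value table, of which 961 carried 1 gene symbol and covered 643 genes. Thrb was not analysed here, since 0 probe sets of the table had that symbol. The names of M31174_at and M31174_g_at point to the same source transcript, and rc_AA997529_s_at was built on a different one. Which splice variant or stretch of the transcript each probe set covers is not given in the sources used here. Signals of different probe sets are therefore not on a common scale, and each was compared only with itself across arrays. By symbol and position in the RefSeq GRCr8 annotation, Thra lies on chromosome 10 and overlaps Nr1d1, a nuclear receptor gene of the circadian clock, and Med24, a subunit gene of the Mediator complex. No probe set of the table was named for either neighbour.

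The arrays were GeneChip Rat Neurobiology U34 arrays hybridised with amplified RNA from cells cut by laser out of the second lumbar segment of neonatal Wistar rats, used in the first days after birth. Each of the 22 arrays came from a separate animal. The MIX group (8 arrays) held cells taken at random from the ventral horn, which can include motor neurons, commissural interneurons and any other cell there. The dCIN group (7 arrays) held descending commissural interneurons, whose axons cross the midline and run caudally, and which were filled with a rhodamine dextran tracer from cut axons. The MN group (7 arrays) held motor neurons filled with the same tracer from cut ventral roots. The labels give the samples of all groups the same treatment, some hours in oxygenated Ringer solution while the tracer moved, and name no other.

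An array was made from 95 to 187 cells in MIX, 50 to 100 cells in dCIN and 55 to 250 cells in MN. The median signal of an array lay between 45.0 and 48.2 in MIX, between 43.5 and 50.9 in dCIN and between 44.3 and 50.8 in MN. The 7 measured motor neuron markers of 12 listed summed to 12437 to 18541 in MIX, 6971 to 11118 in dCIN and 18424 to 21450 in MN. The dCIN and MN sums thus went with the labels. Among these markers Slc18a3, Calcb, Nefh, Nefl and Sncg were picked by the study on these same arrays, so this is no independent check. Slc32a1, the vesicular transporter of GABA and glycine and the 1 measured inhibitory marker of 6 listed, had signals of 187 to 580 in MIX, 352 to 762 in dCIN and 35.2 to 366 in MN, and the highest MN value was that of array 3. Slc32a1 was likewise picked by the study on the dCIN and MN arrays. In such pooled material fewer cells of a type and less RNA per cell cannot be told apart.

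M31174_at gave the Thra signal that differed most between the labelled neuron types. Its signal was 2393, 1985, 2485, 2124, 1520, 2642, 1570 and 3015 in MIX arrays 1 to 8. It was 2176, 2417, 2718, 3002, 2884, 3182 and 2375 in dCIN arrays 1 to 7, and 2041, 1598, 2295, 2124, 1690, 1393 and 1371 in MN arrays 1 to 7. The dCIN arrays were high and the MN arrays low, with 6 of 7 dCIN arrays above every MN array and 6 of 7 MN arrays below every dCIN array. The overlap came from dCIN array 1, the lowest of its group, and MN array 3, the highest of its group. The MIX arrays spanned nearly the whole range of both, with arrays 5 and 7 among the MN values and array 8 among the upper dCIN values.

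The mean signal of M31174_at was 2217 ± 519 in MIX (SD, n = 8), 2679 ± 369 in dCIN and 1787 ± 367 in MN (SD, n = 7 each). Relative to the mean the spread was 23.4% in MIX, 13.8% in dCIN and 20.6% in MN. The dCIN minus MN log2 difference was 0.60 (SE 0.14), which is 1.51-fold. This probe set was picked by the study from the dCIN and MN arrays as differing between them, so the values describe the choice and carry no test. With limma, 40 of 1050 probe sets (3.81%) had a Benjamini-Hochberg adjusted p under 0.1 between dCIN and MN, and 1 of the 3 Thra probe sets, M31174_at, was among them, which its choice on this same contrast leaves without weight. Over all probe sets the median size of the log2 difference was 0.13. The difference at M31174_at stayed between 0.54 and 0.66 when any array was left out, the highest value being without MN array 3.

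**Figure D1:**
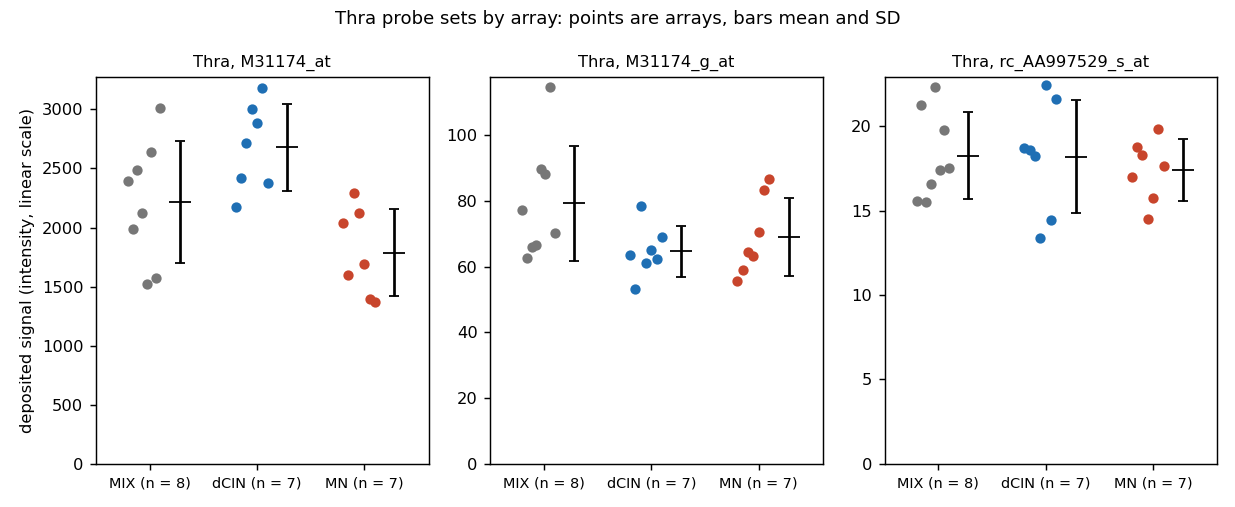
Deposited signal (linear intensity, axis from 0) of the 3 Thra probe sets in the 8 MIX, 7 dCIN and 7 MN arrays; each point is 1 array, and the bars give mean and SD. At M31174_at 6 of 7 dCIN arrays lay above every MN array while MIX ran from 1520 to 3015; at the other probe sets the groups overlapped.

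The MIX arrays took no part in that choice, but both groups they can be set against did. Their mean at M31174_at was 0.30 lower than that of dCIN and 0.30 higher than that of MN on the log2 scale (SE 0.15 each). Both steps were smaller than the log2 SD of the MIX arrays, which was 0.35. The step between MIX and dCIN was larger than the log2 SD of the dCIN arrays (0.20), and that between MIX and MN was about the log2 SD of the MN arrays (0.30). Of the 8 MIX arrays, 4 lay below every dCIN array and 4 lay above every MN array. The order of the means was dCIN, MIX, MN, with overlapping arrays between each pair of neighbours. Placed on an axis on which the MN mean of log2 signals is 0 and the dCIN mean is 1, the MIX arrays ran from -0.35 in array 5 to 1.30 in array 8. Arrays 1, 3 and 6 lay close to the dCIN end at 0.75, 0.84 and 0.99, arrays 2 and 4 lay in between at 0.30 and 0.46, and array 7 lay beyond the MN mean at -0.27. The dCIN arrays covered 0.52 to 1.44 and the MN arrays -0.60 to 0.65 of the same axis.

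M31174_g_at, named for the same source transcript, did not follow this order. Its signal was 77.2, 62.6, 65.9, 66.5, 89.6, 88.2, 115 and 70.3 in MIX arrays 1 to 8, 63.5, 53.3, 78.4, 61.1, 65.2, 62.3 and 69.1 in dCIN arrays 1 to 7, and 55.5, 58.9, 64.5, 63.4, 70.5, 83.5 and 86.6 in MN arrays 1 to 7. The highest signal was that of MIX array 7, and the lowest that of dCIN array 2. These signals were low, where the array medians lay between 43.5 and 50.9. The group medians of 73.8 in MIX, 63.5 in dCIN and 64.5 in MN were not far above those of the brighter probe set of the astrocyte gene Gfap. Its medians were 52.3, 53.8 and 54.2, while those of the dimmer Gfap probe set were 31.0, 29.1 and 28.9. From both probe sets the paper judged Gfap not expressed in these samples. At M31174_g_at all groups overlapped, although 3 of 8 MIX arrays lay above every dCIN array. The means of M31174_g_at were 79.4 ± 17.5 in MIX (SD, n = 8), 64.7 ± 7.73 in dCIN and 69.0 ± 11.9 in MN (SD, n = 7 each). The dCIN minus MN log2 difference was -0.08 (SE 0.12), opposite in sign to that of M31174_at, and is given without a test because the gene was chosen on this contrast through M31174_at. It stayed negative throughout, from -0.26 with the log2 number of cells in the fit to -0.03 without MN array 7, and was -0.21 with array weights and -0.18 without the arrays of over 200 cells. MIX exceeded dCIN by 0.28 (SE 0.13), with a limma p of 0.0434 and a Benjamini-Hochberg adjusted p of 0.641, and MIX exceeded MN by 0.19 (SE 0.13, limma adjusted p = 0.483), so neither difference passed the test. With the log2 number of cells in the fit, the MIX minus dCIN difference was 0.48 and passed it (limma adjusted p = 0.0757), the lowest of the adjusted p-values over the alternatives, which ran to 0.995. The median number of cells was 112.5 in MIX and 75 in dCIN.

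The third probe set, rc_AA997529_s_at, lay below the median signal on every array and differed least. Its signal was 15.6, 21.2, 15.5, 16.6, 22.3, 17.4, 19.8 and 17.5 in MIX arrays 1 to 8, 18.7, 18.6, 18.2, 13.4, 22.5, 14.4 and 21.6 in dCIN arrays 1 to 7, and 17.0, 18.8, 18.3, 14.5, 15.8, 19.9 and 17.7 in MN arrays 1 to 7. The groups overlapped throughout, and both the highest and the lowest signals were those of dCIN arrays. The means were 18.3 ± 2.58 in MIX (SD, n = 8), 18.2 ± 3.35 in dCIN and 17.4 ± 1.83 in MN (SD, n = 7 each). The log2 differences were 0.05 for dCIN minus MN (SE 0.12, no test), 0.01 for MIX minus dCIN (SE 0.12, limma adjusted p = 0.991) and 0.06 for MIX minus MN (SE 0.12, limma adjusted p = 0.822). The sign of the MIX minus dCIN value turned when single arrays were left out, and that of dCIN minus MN turned without dCIN array 5. Over the whole table limma called 5 probe sets (0.476%) between MIX and dCIN and 10 (0.952%) between MIX and MN, and neither M31174_g_at nor rc_AA997529_s_at was among them.

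**Figure D2:**
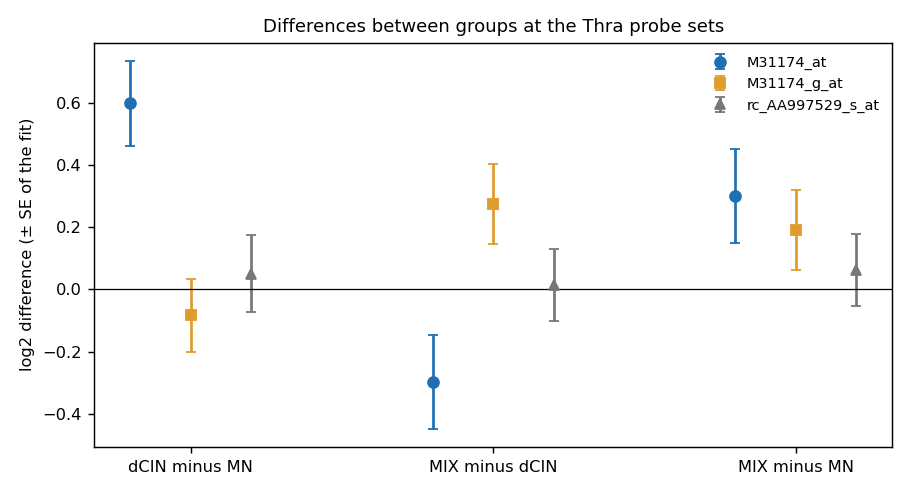
Log2 differences between groups with the standard error of the fit as bars, for the 3 Thra probe sets in dCIN minus MN, MIX minus dCIN and MIX minus MN. M31174_at stands at 0.60, -0.30 and 0.30, while M31174_g_at stands at -0.08, 0.28 and 0.19 and rc_AA997529_s_at at 0.05, 0.01 and 0.06.

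M31174_at did not rise and fall with the other probe sets of Thra from array to array. Over the 8 MIX arrays Pearson's r between M31174_at and M31174_g_at was -0.53 (exact permutation p = 0.177, adjusted p = 0.319 over a family of 18 relations; Spearman's rho -0.31, exact p = 0.462), and it was 0.50 without arrays 5 and 7, so the negative value rested on those arrays. Between M31174_at and rc_AA997529_s_at r was -0.72 (exact permutation p = 0.0502, adjusted p = 0.181; rho -0.60, exact p = 0.132), and -0.54 without arrays 2 and 5. In relations added after the values were seen, M31174_at and M31174_g_at gave r of 0.06 over the 7 dCIN arrays (exact permutation p = 0.902, adjusted p = 0.902 over 3 pairs in each group; rho -0.25, exact p = 0.595; r -0.52 without arrays 2 and 3) and r of -0.73 over the 7 MN arrays (exact permutation p = 0.0712, adjusted p = 0.214; rho -0.57, exact p = 0.2). The MN value was -0.08 without arrays 6 and 7, in which M31174_at was lowest and M31174_g_at highest. M31174_at and rc_AA997529_s_at gave r of -0.55 over the dCIN arrays (exact permutation p = 0.21, adjusted p = 0.629, rho -0.57, exact p = 0.2). Over the MN arrays that pair gave r of -0.47 (exact permutation p = 0.289, adjusted p = 0.434, rho -0.43, exact p = 0.354). Without arrays 4 and 6 of each group these values were 0.38 and 0.05, so the negative signs rested on those arrays. M31174_g_at and rc_AA997529_s_at gave a positive r in every group, of 0.34 over the MIX arrays (exact permutation p = 0.406, adjusted p = 0.457; rho 0.33, exact p = 0.428; r 0.81 without arrays 2 and 5), 0.25 over the dCIN arrays (exact permutation p = 0.593, adjusted p = 0.890; rho 0.43, exact p = 0.354; r 0.07 without arrays 4 and 6) and 0.29 over the MN arrays (exact permutation p = 0.534, adjusted p = 0.534; rho 0.21, exact p = 0.662; r -0.18 without arrays 4 and 6).

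Since the MIX arrays were not used in choosing the gene and can differ in which cells they hold, each Thra probe set was set against the cell type markers over them. M31174_at went with Slc32a1 at r = 0.76 (exact permutation p = 0.0253, adjusted p = 0.152; rho 0.71, exact p = 0.0576) and at r = 0.62 without arrays 3 and 5. Against the mean log2 signal of the motor neuron markers r was -0.62 (exact permutation p = 0.102, adjusted p = 0.252; rho -0.69, exact p = 0.0694) and -0.52 without arrays 2 and 8. The signs match those of the dCIN and MN difference, with M31174_at high where Slc32a1 was high, but no relation of the family passed 0.05 by Pearson's r after adjustment.

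Astrocyte markers moved with M31174_at as well. Over the 8 MIX arrays r with the mean log2 signal of the 4 measured astrocyte markers (S100b, Slc1a2, Slc1a3 and Apoe, of 9 listed) was 0.81 (exact permutation p = 0.0185, adjusted p = 0.152; rho 0.62, exact p = 0.115). Without arrays 5 and 7, in which both were lowest, r was 0.09, so the relation rested on those arrays. The summed astrocyte signal was 3314 to 8453 in MIX, 5224 to 8054 in dCIN and 3274 to 5762 in MN. No marker was at the lowest value of the table, which was 1. Most of the sum was Apoe, which averaged 4959 in MIX, 6027 in dCIN and 3768 in MN, so the sum largely restates that gene. S100b averaged 1198, 1103 and 771 in the same order. Slc1a3 (103, 113 and 88.2) and Slc1a2 (59.1, 82.3 and 74.0) added little. Of the 8 astrocyte probe sets 1 was called between dCIN and MN, that of the lipid carrier Apoe, which was higher in dCIN (log2 difference 0.69, limma adjusted p = 0.0125), where 2.38% of the table was called higher. Apoe was itself picked by the study on these arrays. Of the 8, 7 had a positive difference and 3 an unadjusted p under 0.05, against 114 of 1050 probe sets under 0.05 in the table. Gfap, the intermediate filament protein of astrocytes, had median signals of 52.3 in MIX, 53.8 in dCIN and 54.2 in MN at the probe set for its mRNA. At the dimmer Gfap probe set they were 31.0, 29.1 and 28.9. The part of these cells in the Thra signal was not tested.

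M31174_at and the 4 measured oligodendrocyte markers gave r = 0.59 (exact permutation p = 0.126, adjusted p = 0.252; rho 0.57, exact p = 0.151), and 0.24 without arrays 6 and 7. With the log2 number of cells M31174_at gave r = 0.45 (exact permutation p = 0.251, adjusted p = 0.377; rho 0.45, exact p = 0.266), and 0.17 without arrays 1 and 8. None of the relations of M31174_g_at passed after adjustment. By Pearson's r the strongest was that with the astrocyte markers (r = -0.73, exact permutation p = 0.0474, adjusted p = 0.181; rho -0.50, exact p = 0.216), which was -0.01 without arrays 5 and 7. By rank it was that with Slc32a1 (rho -0.74, exact permutation p = 0.0458, adjusted p = 0.312; r = -0.59, exact p = 0.122), where r was -0.61 without arrays 3 and 5, and the sign was opposite to that of M31174_at. The dim rc_AA997529_s_at ran against the astrocyte markers with rho = -0.98 (exact permutation p = 0.000397, adjusted p = 0.00714) and r = -0.84 (exact permutation p = 0.00975, adjusted p = 0.152), and r was -0.80 without arrays 5 and 7. That rank relation passed adjustment, but over signals that lay only between 15.5 and 22.3.

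**Figure D3:**
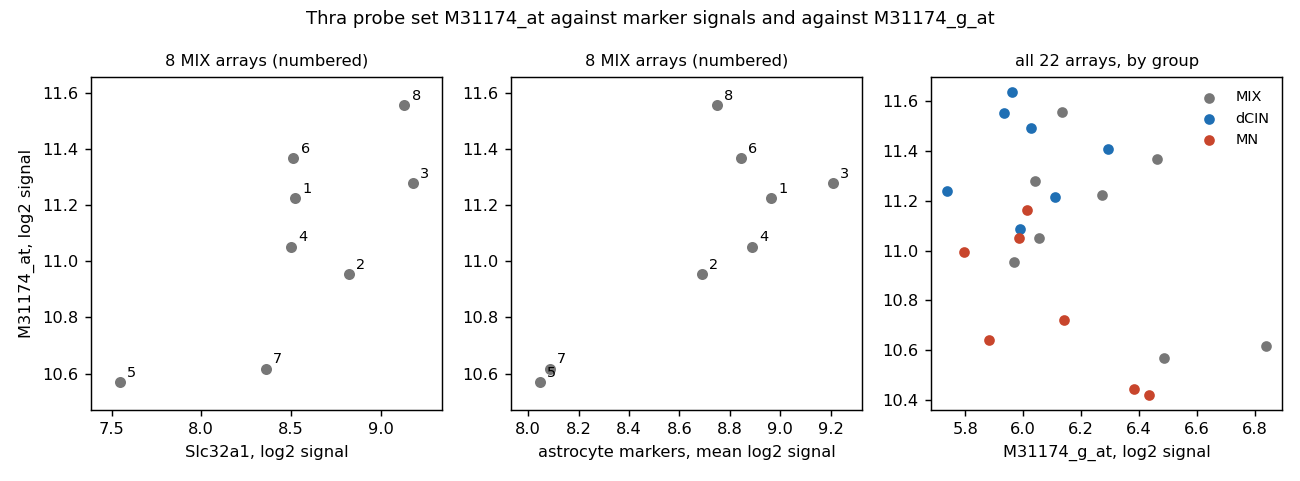
Log2 signal of M31174_at against that of Slc32a1 and against the mean log2 signal of the astrocyte markers over the 8 numbered MIX arrays, and against M31174_g_at over all 22 arrays, coloured by group. MIX arrays 5 and 7 are lowest on both axes of the first panels (astrocyte r 0.81, and 0.09 without them), and the arrays of each group do not follow a rising line in the last panel.

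RNA for these arrays was amplified from the 3′ end, and the reach of that amplification can be read from control probe sets at both ends of a transcript. The 3′ minus 5′ log2 difference of Gapdh had medians of 0.93 in MIX, 1.81 in dCIN and 1.72 in MN. That of beta-actin had medians of 3.00 in MIX, 3.03 in dCIN and 3.03 in MN. The Gapdh value was highest in MN, at 4.14 and 4.50 in arrays 2 and 1, and lowest in MIX, at -0.15 in array 7. Over the 8 MIX arrays M31174_at had r of 0.26 with the Gapdh difference (exact permutation p = 0.518; rho 0.24, exact p = 0.582; r -0.14 without arrays 4 and 7) and of 0.00 with the beta-actin difference (exact permutation p = 0.993; rho -0.07, exact p = 0.882; r 0.17 without arrays 1 and 4). These relations were added after the values were seen. All 6 of them, for the 3 Thra probe sets, had an exact permutation adjusted p of 0.993 by Pearson's r and of 0.699 or more by rank. The strongest was that of M31174_g_at with the Gapdh difference (r -0.44, exact permutation p = 0.273, rho -0.60, exact p = 0.132). Its r was -0.41 without arrays 4 and 7. The beta-actin value lay between 1.60 and 2.32 in arrays 1 and 2 of all groups and was 2.601 or more in the others. Restricted to arrays 3 to 7 of each group, which leaves out both MN arrays with the highest Gapdh values, the dCIN minus MN difference of M31174_at was 0.70.

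Of the thyroid hormone receptor system little else was on the array by symbol. A list of 16 genes for hormone transport, deiodination and the pituitary and thyroid steps (among them Dio2, Dio3 and Ttr) had 0 measured genes. Of the DNA-binding partners, Rxrg (retinoid X receptor gamma) was measured, and Rxra and Rxrb were not analysed here. Rxrg averaged 32.2 ± 2.84 in MIX (SD, n = 8), 30.8 ± 4.38 in dCIN and 31.3 ± 3.72 in MN (SD, n = 7 each). Its log2 differences were -0.03 for dCIN minus MN (limma adjusted p = 0.936), 0.07 for MIX minus dCIN (0.962) and 0.04 for MIX minus MN (0.853), so the partner receptor did not pass the test in any comparison. Its signal was low, at most 38.3 on any array, where the array medians lay between 43.5 and 50.9. At such a level a difference in Rxrg could go unseen. In the list of nuclear receptors and cofactors 4 of 31 genes were measured by 8 probe sets, 0 of which were called by limma in any of the 3 comparisons and 1 of which, in MIX minus dCIN, had an unadjusted p under 0.05, as did 75 of 1050 over the table. Their median log2 difference between dCIN and MN was -0.04, against -0.03 over all probe sets.

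A further list held 26 genes known to respond to thyroid hormone in the developing brain, of which 13 were measured by 28 probe sets. Between dCIN and MN, 2 of the 28 were called higher and 1 lower, where 2.38% of the table was called higher and 1.43% lower, and the median log2 difference was 0.03, with a range of -2.17 to 1.30. The table as a whole had a median of -0.03, and 9 of the 28 had an unadjusted limma p under 0.05, against 114 of 1050 in the table. Atp2a2, the calcium pump of the endoplasmic reticulum, averaged 736 ± 126 in dCIN and 447 ± 176 in MN (SD, n = 7 each) at rc_AA957510_s_at, with a log2 difference of 0.80 (SE 0.22, limma adjusted p = 0.0768). Gap43, a protein of growing axon ends, averaged 2421 ± 188 in dCIN and 1920 ± 274 in MN at L21192_at, with a log2 difference of 0.34 (SE 0.10, limma adjusted p = 0.0979). Ngfr, the low-affinity neurotrophin receptor and a listed motor neuron marker, was lower at X05137_at, with 139 ± 37.4 in dCIN and 663 ± 272 in MN. The log2 difference there was -2.17 (SE 0.28, limma adjusted p = 0.000297). At U25650_f_at, the Ngfr probe set that the motor neuron marker score uses, the difference was -0.38 (SE 0.22, limma adjusted p = 0.608) and was not called. Of these calls, that of Ngfr held without any single array, that of Gap43 was lost in 12 of 14 such cases (kept without MN arrays 3 and 4) and in 6 of 11 other settings, and that of Atp2a2 was lost in 10 of 14 cases (kept without dCIN arrays 1 and 3 and MN arrays 3 and 4) and in 6 of 11 other settings. Atp2a2 and Ngfr were among the genes the study picked on these arrays, so their direction is no independent evidence.

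Nrgn (neurogranin), a calmodulin-binding protein of dendrites whose gene is a classical hormone-responsive gene of rodent forebrain, averaged 525 ± 344 in MIX (SD, n = 8), 484 ± 265 in dCIN and 228 ± 142 in MN (SD, n = 7 each) at L09119_g_at. Its dCIN minus MN log2 difference of 1.30 (SE 0.54) did not pass (limma adjusted p = 0.367), and single MIX arrays ran from 19.7 to 1118. At L09119_at, the dimmer Nrgn probe set, the means were 78.7 ± 18.3 in dCIN and 56.8 ± 7.97 in MN. The log2 difference there was 0.45 (SE 0.14) and did not pass either (limma adjusted p = 0.129). The myelin genes of the list (Mbp, Mag, Mog and Cnp) had 0 of 7 probe sets called by limma in any comparison, with an unadjusted p under 0.05 at 2 in dCIN minus MN, 1 in MIX minus dCIN and 0 in MIX minus MN (114, 75 and 124 of 1050 over the table). For MIX, 1 of 28 probe sets was called higher than in dCIN and 1 lower than in MN (0.667% of the table was lower and 0.286% higher in MIX than in MN), in both cases Ngfr at X05137_at (log2 1.14 and -1.03, limma adjusted p = 0.0669 and 0.0970), with list medians of -0.04 and 0.02. The Ngfr call against MN was lost without single arrays in 18 of 22 cases (kept without dCIN array 1, MIX arrays 2 and 7 and MN array 3) and in 4 of 10 other settings, with an adjusted p of up to 0.614 without the arrays of over 200 cells. The call against dCIN was lost in 8 of 22 cases (without dCIN arrays 3, 4, 5 and 7 and MIX arrays 1, 4, 5 and 7) and in 3 of 10 other settings. At U25650_f_at Ngfr was not called, with 0.07 for MIX minus dCIN and -0.31 for MIX minus MN (limma adjusted p = 0.975 and 0.437).

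The genes whose log2 signal was most like that of M31174_at over all 22 arrays were Hcrtr2 (orexin receptor 2, r = 0.87), Atp1b1 (a beta subunit of the sodium pump, 0.86) and Nnat (neuronatin, a small membrane protein of developing neurons, 0.84), where the median over 958 probe sets of named genes was -0.11. These correlations describe 22 arrays that share the differences between the groups. Hcrtr2 averaged 57.4 in MIX, 154 in dCIN and 27.2 in MN, and thus had the same order of group means as M31174_at. Like M31174_at, Hcrtr2 and Nnat were picked by the study on the dCIN and MN arrays. Over the 8 MIX arrays alone the leading genes were others, namely Dynll1 (a dynein light chain, 0.95), Atp2a2 (0.95, at rc_AA957510_s_at) and Mog (a myelin glycoprotein, 0.94, at L21995_s_at). They were the highest of 958 compared over only 8 arrays. The Mog signal was low, with means of 50.8 in MIX, 46.1 in dCIN and 56.3 in MN. That order of group means is the reverse of the order at M31174_at.

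The genes most like M31174_g_at over the 22 arrays were Pou3f4 (a POU transcription factor, r = 0.83), Abcc9 (a subunit of ATP-sensitive potassium channels, 0.81) and Grin1 (the obligatory NMDA receptor subunit, 0.81, at S39221_g_at). All 3 had their highest group mean in MIX, as M31174_g_at did. Of them Pou3f4 averaged only 64.1 in MIX, 54.5 in dCIN and 48.9 in MN. For rc_AA997529_s_at the highest correlations were lower, with Stx8 (a SNARE protein of endosomes, 0.61), Cacna1d (an L-type calcium channel subunit, 0.61) and Gja1 (connexin 43, 0.59). These genes were dim as well, with group means between 20.2 and 29.4. No gene was shared between the lists of the 3 Thra probe sets. Each list named only 3 of 958 probe sets compared, so the lack of overlap carries no weight.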

How the data were processed

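The deposited value table holds, per array and probe set, an intensity on a linear scale that the authors derived from the perfect match probes. They subtracted a global background, applied a quantile linear transformation and quantile normalization over all 22 arrays, summarised with the Li-Wong model, subtracted the lowest value and kept annotated probe sets. The submitters' processing notes name affy, with its version not given in the sources used here. Such a joint normalization gives all arrays nearly the same distribution, so a shift shared by most genes would not be seen.

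Groups came from the sample titles, and each array is 1 animal. Gene names came from the platform annotation (961 probe sets with 1 symbol, 7 with several, 82 unnamed). Log2 intensities were fitted in limma 3.58.1 (R 4.3.3): dCIN and MN arrays alone for dCIN minus MN, all 22 arrays with 3 group means for the MIX comparisons, Benjamini-Hochberg over 1050 probe sets, called at an adjusted p under 0.1. The fit was tested on simulated data. Correlations used two-sided exact permutation tests (Python 3.11.15). A marker score is the mean log2 signal of each gene's brightest probe set. Named were all Thra probe sets, the 3 most similar named genes of each, every called probe set of the hormone-responsive and nuclear receptor lists, and Rxrg. Nrgn, Apoe, Gfap, Rara and Esr2 were added after their values were seen. The members and lists were chosen with earlier results of these data known. Precision is limited by the number of arrays, and scan dates are not given in the sources used here. The alternatives tried were an offset of 32, a minimum mean log2 value of 6, quantile normalization, median centring, an intensity trend with robust prior, weights for arrays, array numbers as a block, cell number as a covariate, omission of arrays from over 200 cells, another set of groups in the fit, and leaving out each array.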

Additional observations from a re-analysis of the deposited data

How the results depend on the processing

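M31174_at kept its sign under every alternative: dCIN minus MN from 0.54 to 0.71, MIX minus dCIN from -0.44 to -0.23, MIX minus MN from 0.23 to 0.49. The MIX minus MN value of M31174_g_at was -0.0412 with array weights. The MIX minus dCIN value of rc_AA997529_s_at ran from -0.0567 to 0.0674 when single arrays were left out, and the minimum mean log2 of 6 removed that probe set. Called probe sets between dCIN and MN numbered 31 to 55 without 1 array and 76 (44 higher, 32 lower) with array weights. Between MIX and dCIN they numbered 1 (without dCIN array 3) to 8 (without MIX array 2), 2 with quantile normalization, 2 with trend and robust prior, and 68 (20 higher, 48 lower) with the number of cells as covariate. Between MIX and MN they numbered 2 (without dCIN array 5) to 14 (without MIX array 2), 3 with quantile normalization, 2 without arrays of over 200 cells and 33 (18 higher, 15 lower) with array weights. The causes were not tested. Of the 18 correlations, 0 to 1 passed by Pearson's r without 1 array; rc_AA997529_s_at against the astrocyte markers passed without MIX array 2 (r = -0.95) or 7 (-0.88), both at an exact permutation adjusted p of 0.00357. Each array is a separate animal, and what a shared array number stands for is not given in the sources used here. Deviations of same-numbered dCIN and MN arrays correlated from -0.19 to 0.53, over 0.1 in 5 of 7 pairs. The same-numbered MN array was the best match only for dCIN arrays 1 and 4. Between MIX and dCIN this held for arrays 2, 5 and 6, and between MIX and MN only for array 3. With the array number as a replicate block the calls numbered 55, 7 and 9 in the 3 comparisons, and M31174_at gave 0.60, -0.37 and 0.23.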

Other observations

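Other hormone-binding nuclear receptors related to Thra were measured at Rara and Esr2, and none of their probe sets was called. Rara, the retinoic acid receptor alpha, averaged 133 ± 27.6 in MIX (SD, n = 8), 174 ± 91.7 in dCIN and 278 ± 238 in MN (SD, n = 7 each) at U15211_at. Its dCIN minus MN log2 difference was -0.45 (SE 0.44, limma adjusted p = 0.732), and single MN arrays ran from 124 to 663. At the dimmer Rara probe sets U15211_g_at and AJ002940cds_s_at this difference was -0.004 and -0.04. Esr2, the oestrogen receptor beta, averaged 97.5 ± 33.4 in MIX, 149 ± 35.0 in dCIN and 121 ± 45.4 in MN at U57439_at, with a MIX minus dCIN log2 difference of -0.66 (SE 0.25, limma adjusted p = 0.469). At the dimmer Esr2 probe set U57439_g_at that difference was 0.01 (limma adjusted p = 0.984).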
